A study of Saccharomyces cerevisiae with 24 samples.

Results

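The genes described here were 9 regulators of the budding yeast cell cycle. They were the G1 cyclins *CLN1*, *CLN2* and *CLN3*, the S phase cyclins *CLB5* and *CLB6*, the mitotic cyclins *CLB1* and *CLB2*, and the inhibitors *SIC1* and *WHI5*. They were taken by ORF name, as 9 of the 6692 ORFs in the count table, and all 9 passed the filter on low counts that left 6616 genes for testing. RNA was sequenced from *Saccharomyces cerevisiae* grown in medium with glucose to log phase, 24 hr and 48 hr. The strain JS1416 carried *snf1*∆ and a spontaneous suppressor mutation, *cyc8-G337S*, and descends from a single colony that regrew in an aged *snf1*∆ culture. The strain JS1394 was *snf1*∆ alone, and JS1256 was WT. For JS1416 the 3 time points were covered by 1, 2 and 3 libraries, and for *snf1*∆ and WT by 3 each. The log phase samples carry a label of 5 hr. Snf1 is the yeast AMP-activated protein kinase, which acts when glucose runs out, and Cyc8 is a subunit of the Cyc8/Tup1 corepressor.

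Division in budding yeast is driven by the kinase Cdc28 bound to successive cyclins. Cln3 starts the process by acting against Whi5, the repressor held on the transcription factor SBF. SBF and the related factor MBF then switch on *CLN1*, *CLN2*, *CLB5* and *CLB6*. Cln1 and Cln2 drive budding and lead to destruction of Sic1, the inhibitor that holds Clb-bound Cdc28 in check, which frees Clb5 and Clb6 to start DNA replication. Clb1 and Clb2 carry the cell through mitosis, and *SIC1* is transcribed again as cells leave it. When yeast exhausts its glucose, cells stop dividing and most rest in G1. A culture can lower the level of a cyclin mRNA through fewer dividing cells or through less of that mRNA in each cell, and these cannot be told apart in bulk RNA.

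The 9 genes lie on 6 chromosomes of the R64 assembly, whose sequence is that of the build used for mapping, sacCer3. *CLN1* (YMR199W) is at chromosome XIII, 662644 to 664284 on the plus strand, *CLN2* (YPL256C) at chromosome XVI, 64977 to 66614 on the minus strand, and *CLN3* (YAL040C) at chromosome I, 65778 to 67520 on the minus strand. *SIC1* (YLR079W) is at chromosome XII, 286820 to 287674, and *WHI5* (YOR083W) at chromosome XV, 479533 to 480420, both on the plus strand. The B-type cyclins sit in converging pairs of a mitotic and an S phase gene. *CLB2* (YPR119W) at chromosome XVI, 771653 to 773128 on the plus strand, faces *CLB5* (YPR120C) at 773875 to 775182 on the minus strand, with 746 bp between the coding ends. *CLB1* (YGR108W) at chromosome VII, 703636 to 705051 on the plus strand, faces *CLB6* (YGR109C) at 705359 to 706501 on the minus strand, with 307 bp between them. No annotated gene overlapped any of the 9, and none of their 75-base stretches, the length of a read, occurred elsewhere in the genome.

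Promoters were read from R64 as the 600 bp before each start codon, in 6002 genes, and searched on both strands for binding motifs known for cell cycle factors. The SBF motif (CNCGAAA) occurred in 24.7% of promoters and the MBF motif (ACGCGT) in 6.33%. The stretches below are printed 5′ to 3′ on the strand of the gene because they hold the repeated matches among the 9 genes, and capitals mark the SBF motif in *CLN1* and *CLN2* and the MBF motif in *CLB6*.
CLN1 promoter, R64 chrXIII:662177-662230, plus strand: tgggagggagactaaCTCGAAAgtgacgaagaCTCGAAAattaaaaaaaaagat
CLN2 promoter, R64 chrXVI:67131-67210, minus strand: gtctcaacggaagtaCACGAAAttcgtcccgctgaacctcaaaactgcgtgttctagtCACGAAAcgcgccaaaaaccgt
CLB6 promoter, R64 chrVII:706858-706919, minus strand: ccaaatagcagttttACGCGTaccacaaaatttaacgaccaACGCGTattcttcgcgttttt

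*CLN1* and *CLN2* each held 2 SBF motifs, a number reached by 3.48% of promoters, and *CLB6* held 2 MBF motifs, a number reached by 0.666%. *SIC1* held 1 SBF motif, at -7 from its start codon, so that 3 of the 9 genes held this motif. The core bound by the repressor Xbp1 (CTCGA) occurred in 45.2% of promoters and in 4 of the 9 genes. *CLN1* held it 5 times, a number reached by 0.35% of promoters. Of those matches, 2 lie inside the SBF motifs printed above, whose first letters they share. *CLN3* held 2 cores, a number reached by 18% of promoters, and *CLB2* held 1. *CLB5* held 3 Xbp1 cores, 2 of them overlapping on opposite strands, and no exact MBF motif in its 600 bp. The forkhead motif (GTAAACA) was in *CLB6* and *WHI5*, against 12% of promoters. These matches describe the letters of the promoters and not binding.

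Each library held between 747098 and 29070805 counts, and levels are given as CPM, counts scaled to the library total with TMM factors. *SNF1* had 687 to 958 counts per WT library at log, 2 to 7 in *snf1*∆ and 5 in JS1416. At 48 hr, 1 library of each mutant strain stood nearer to the other mutant than to its own. Over 6616 genes, *snf1*∆ replicate 3 correlated with JS1416 replicates 2 and 3 at r of 0.984 and 0.939, against 0.905 and 0.901 with *snf1*∆ replicates 1 and 2. JS1416 replicate 1 correlated with *snf1*∆ replicates 1 and 2 at r of 0.984 and 0.980, against 0.928 and 0.884 with JS1416 replicates 2 and 3. Whether the labels of these libraries were exchanged cannot be told from the files, and the labels were kept. Results at 48 hr in these strains are therefore given with and without both libraries, called the doubted libraries. They were picked by their likeness to the other strain, so that leaving them out narrows the spread within strains by construction and raises the number of genes called. Calls and adjusted p from the fit without both are therefore descriptions and not tests. This holds also for comparisons that these libraries enter only through the shared spread. Differences are log2 fold changes, given with their standard error (SE) and a p adjusted over all 6616 genes from edgeR's quasi-likelihood test. A gene was called at an adjusted p under 0.05. Where libraries are said not to overlap between groups, this describes that gene alone, since overlap was not counted over all genes.

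The plot of all 9 genes by strain and time shows the pattern that the rest of the text takes apart. The cyclins other than *CLN3* were lower at 24 hr than at log in every strain, and *SIC1* was highest in WT at 24 hr.

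**Figure D1:**
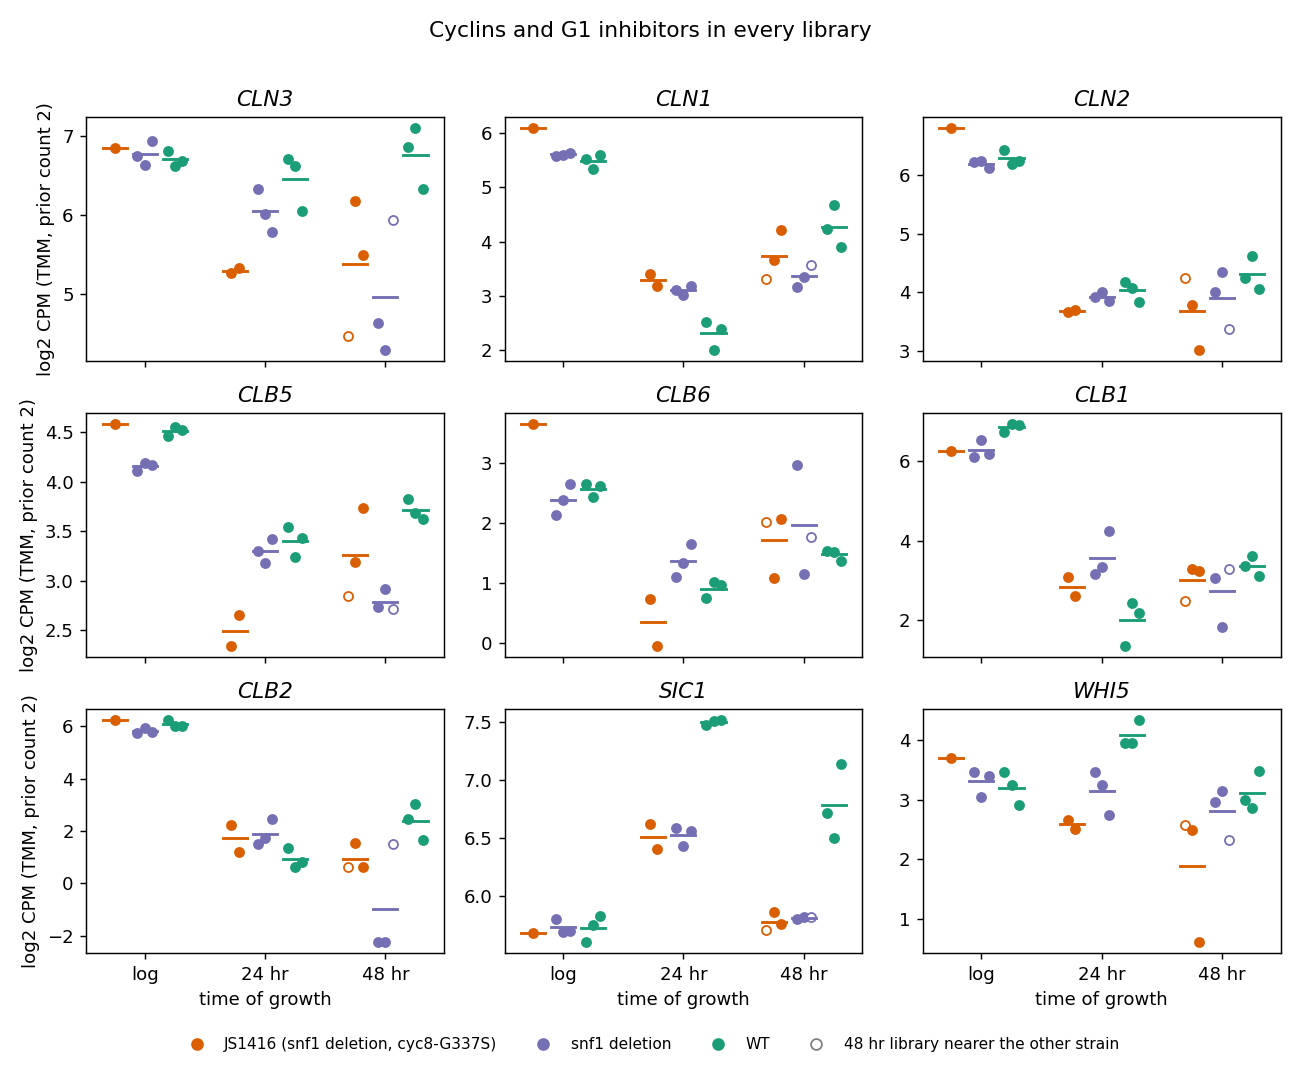
Level of each gene in each library, as log2 CPM with TMM scaling and a prior count of 2 on the y axis and time on the x axis, with JS1416 left of *snf1*∆ and *snf1*∆ left of WT; points are libraries, bars are group means, and open points are the 48 hr libraries nearer to the other mutant strain. *SIC1* in WT at 24 hr lies between 178 and 182 CPM, above every other library, and *CLB2* in *snf1*∆ at 48 hr has 2 libraries with 0 counts.

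In log phase the levels of the 9 genes spread over more than an order of magnitude. Per kilobase of coding sequence, *CLB1* was the most abundant in WT at 82.3 CPM per kb, followed by *SIC1* at 61.6, *CLN3* at 59.6, *CLN2* at 47.6, *CLB2* at 46.2, *CLN1* at 27.3, *CLB5* at 17.3, *WHI5* at 10.2 and *CLB6* at 4.97 CPM per kb. The libraries of *SIC1* and *CLN3* overlapped, as did those of *CLN2* and *CLB2*, while the other neighbours in this order did not. In *snf1*∆ the first 3 places, *CLN3* at 62.5, *SIC1* at 61.8 and *CLB1* at 55.5 CPM per kb, overlapped. By 24 hr the order had turned over in each strain. *SIC1* was first at 107 CPM per kb in JS1416, 108 in *snf1*∆ and 211 in WT, and *CLN3* second at 22.3, 38.1 and 51.2 CPM per kb in these strains. *CLB2* and *CLB6* took the last 2 places in all 3 strains.

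The deletion of *SNF1* alone was compared with WT in log phase. None of the 9 passed the test between *snf1*∆ and WT at log with edgeR's quasi-likelihood test, in a comparison that called 2.12% of genes, 1.69% higher and 0.423% lower. At an unadjusted p under 0.05 there were 2, *CLB1* and *CLB5*, beside 687 of all 6616 genes, and DESeq2 called 0. *CLB1* had 69.5, 93.5 and 72.6 CPM in *snf1*∆, against 106, 123 and 120.5 CPM in WT. *CLB5* had 17.03, 18.04 and 17.8 CPM in *snf1*∆, against 21.8, 23.3 and 22.9 CPM in WT. Neither gene overlapped between the strains, and the log2 fold changes were -0.57 (SE 0.24, adjusted p = 0.397) and -0.36 (SE 0.14, adjusted p = 0.288). The libraries of *CLB2* did not overlap either, with a log2 fold change of -0.28 (SE 0.27, adjusted p = 0.785). At log the replicate numbers of *snf1*∆ and WT deviate together. A fit of these 6 libraries alone with the replicate as a block called 3 genes lower in *snf1*∆. They were *CLB1* at -0.53 (SE 0.06, adjusted p = 9.81e-06), *CLB5* at -0.32 (SE 0.08, adjusted p = 0.00622) and *CLB2* at -0.23 (SE 0.07, adjusted p = 0.0243). A block in the model of all libraries called 0. The 2.12% above belongs to the model of all libraries without a block, so these 3 calls have no share of all genes beside them. They are therefore not read as a result particular to the 9 genes. The other genes had intervals for the log2 fold change that included 0, for example -0.26 to 0.27 for *SIC1*, -0.43 to 0.24 for *CLN2* and -0.60 to 0.73 for *CLN3*. At log the single JS1416 library had 12.2 CPM of *CLB6*, against 4.15 to 6.01 CPM in *snf1*∆ and 5.15 to 6.06 in WT, and 68.0 CPM of *CLN1*, against 47.7 to 49.5 and 40.4 to 48.3 CPM, with no replicate to test.

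The question for the 24 hr samples is which of these genes follow the exit from division. In both strains 6 cyclins fell between log and 24 hr, and the inhibitor *SIC1* rose. In *snf1*∆, 7 of the 9 passed the test, 1 higher and 6 lower, where 67.0% of all genes were called, 36.5% higher and 30.5% lower. In WT, 8 of the 9 passed, 2 higher and 6 lower, where 79.7% of all genes were called, 41.2% higher and 38.5% lower, so that the share called among the 9 is near that of all genes. The median log2 fold change of the 9 was -1.01 in *snf1*∆ and -1.74 in WT, beside medians over all genes of 0.09 and 0.10. Scaled by library totals alone, the median over all genes was -0.07 in *snf1*∆ and -0.41 in WT, where 1971 genes were then called higher and 3154 lower, against 2725 and 2550 with TMM.

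The mitotic cyclins had the largest declines. *CLB2*, the main mitotic cyclin, had 2.65, 3.08 and 5.30 CPM at 24 hr in *snf1*∆, against 53.1, 60.3 and 54.8 CPM at log, a 14.1-fold lower level with a log2 fold change of -3.82 (SE 0.34, adjusted p = 7.43e-09). In WT it had 2.34, 1.35 and 1.56 CPM at 24 hr, against 75.1, 64.9 and 64.6 CPM at log, 39.9-fold lower, with a log2 fold change of -5.32 (SE 0.41, adjusted p = 1.70e-10). The WT libraries at 24 hr rest on 6 to 9 counts of *CLB2* each. *CLB1*, its close relative, had 8.66, 9.82 and 18.7 CPM at 24 hr in *snf1*∆, against 69.5, 93.5 and 72.6 CPM at log, with a log2 fold change of -2.60 (SE 0.27, adjusted p = 5.85e-08). In WT *CLB1* had 2.34, 5.17 and 4.34 CPM at 24 hr, against 106, 123 and 120.5 CPM at log, with a log2 fold change of -4.84 (SE 0.32, adjusted p = 2.06e-11). No library at 24 hr reached the level of any library at log for either gene. *CLB1* was 6.06-fold lower in *snf1*∆ and 28.6-fold lower in WT.

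The G1 cyclins of the SBF branch also fell. *CLN2* had 14.9, 15.8 and 14.2 CPM at 24 hr in *snf1*∆, against 74.4, 75.2 and 69.4 CPM at log, with a log2 fold change of -2.29 (SE 0.19, adjusted p = 3.08e-09). In WT it had 17.8, 16.6 and 14.1 CPM at 24 hr, against 85.6, 72.8 and 75.5 CPM at log, with a log2 fold change of -2.28 (SE 0.19, adjusted p = 1.01e-09). The decline of *CLN2* was of like size in both strains, 4.89-fold in *snf1*∆ and 4.85-fold in WT. *CLN1* had 8.42, 7.89 and 8.89 CPM at 24 hr in *snf1*∆, against 47.7, 48.3 and 49.5 CPM at log, with a log2 fold change of -2.52 (SE 0.19, adjusted p = 6.68e-10). In WT *CLN1* had 5.56, 3.82 and 5.04 CPM at 24 hr, against 45.7, 40.4 and 48.3 CPM at log, with a log2 fold change of -3.22 (SE 0.21, adjusted p = 1.29e-11). These paralogues, which share 2 SBF motifs each, thus stood further apart at 24 hr in WT. Within each library and per kilobase, *CLN1* stood 0.82 ± 0.16 log2 units below *CLN2* at 24 hr in *snf1*∆ and 1.72 ± 0.32 below it in WT, against 0.59 ± 0.09 and 0.80 ± 0.14 at log (SD, n = 3 each).

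*CLN3*, the upstream cyclin whose role is to sense growth, did not pass the test. It had 79.8, 64.3 and 54.95 CPM at 24 hr in *snf1*∆, against 107, 98.4 and 122 CPM at log, with a log2 fold change of -0.72 (SE 0.34, adjusted p = 0.0714). In WT it had 104, 97.7 and 66.02 CPM at 24 hr, against 111, 98.1 and 102 CPM at log, with a log2 fold change of -0.22 (SE 0.34, adjusted p = 0.557). In *snf1*∆ every library at 24 hr was below every library at log. The call depends on the fit, since *CLN3* was called lower in *snf1*∆ by DESeq2, at an adjusted p of 0.0436, and without both doubted 48 hr libraries, at 0.000646 with edgeR.

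The S phase cyclins fell least among the 6. *CLB5* had 9.62, 8.86 and 10.5 CPM at 24 hr in *snf1*∆, against 17.03, 18.04 and 17.8 CPM at log, with a log2 fold change of -0.86 (SE 0.15, adjusted p = 3.62e-05). In WT it had 11.4, 9.21 and 10.6 CPM at 24 hr, against 21.8, 23.3 and 22.9 CPM at log, with a log2 fold change of -1.13 (SE 0.15, adjusted p = 8.78e-07). *CLB6*, the rarer of the pair, had 1.92, 2.31 and 2.91 CPM at 24 hr in *snf1*∆, against 4.15, 4.98 and 6.01 CPM at log, with a log2 fold change of -1.01 (SE 0.29, adjusted p = 0.0044). All *CLB6* libraries at 24 hr were below those at log, though those in WT hold only 5 to 10 counts each. In WT *CLB6* had 1.46, 1.80 and 1.74 CPM at 24 hr, against 6.06, 5.15 and 5.86 CPM at log, with a log2 fold change of -1.74 (SE 0.34, adjusted p = 8.96e-05).

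The inhibitors separated the strains. *SIC1*, the inhibitor of Clb-bound Cdc28, had 95.96, 86.1 and 93.8 CPM at 24 hr in *snf1*∆, against 55.6, 51.3 and 51.6 CPM at log, 1.74-fold higher, with a log2 fold change of 0.80 (SE 0.14, adjusted p = 3.05e-05). In WT it had 178, 182 and 182 CPM at 24 hr, against 48.4, 53.4 and 56.3 CPM at log, 3.43-fold higher, with a log2 fold change of 1.78 (SE 0.14, adjusted p = 2.22e-10). The WT libraries lay within 5 CPM of each other and far above those of *snf1*∆. *WHI5*, the repressor of SBF, had 10.8, 9.24 and 6.50 CPM at 24 hr in *snf1*∆, against 10.9, 8.08 and 10.4 CPM at log, with a log2 fold change of -0.18 (SE 0.24, adjusted p = 0.53). In WT *WHI5* had 15.2, 15.3 and 19.98 CPM at 24 hr, against 10.8, 9.24 and 7.30 CPM at log, with a log2 fold change of 0.90 (SE 0.23, adjusted p = 0.00151). The libraries of *WHI5* at 24 hr lay above those at log in WT and overlapped them in *snf1*∆. The rise in WT was not called when libraries were scaled by their totals alone, at 0.39 (SE 0.21, adjusted p = 0.0993).

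**Figure D2:**
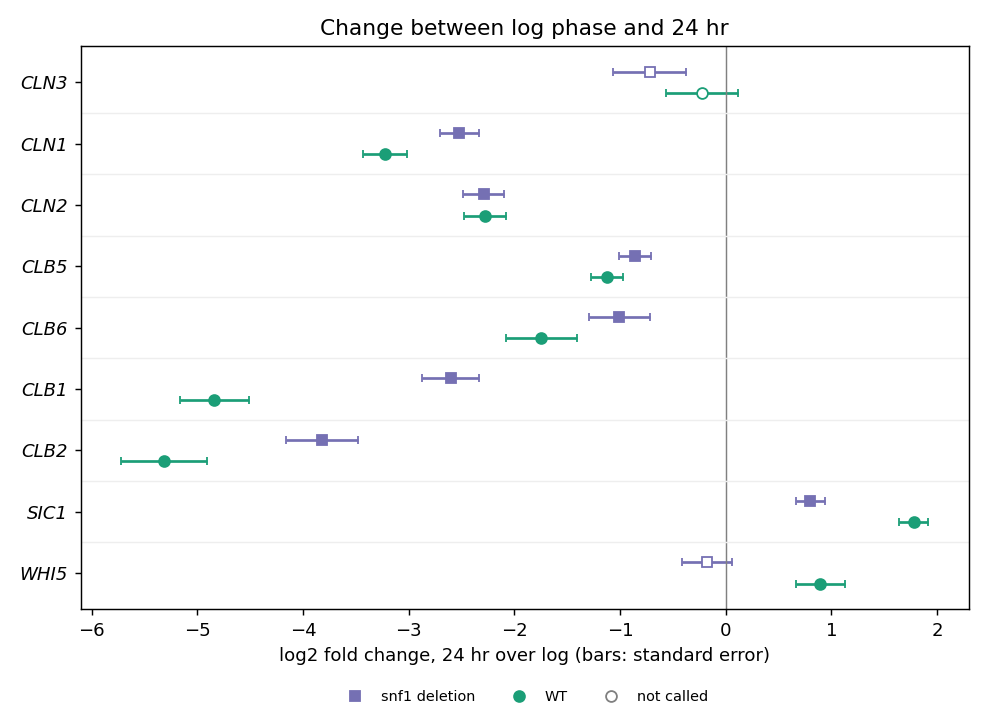
Log2 fold change of each gene at 24 hr over log on the x axis, for *snf1*∆ (squares) above WT (circles), with bars of 1 standard error; filled symbols passed edgeR's quasi-likelihood test. The 6 cyclins from *CLN1* to *CLB2* lie left of 0 in both strains, from -0.86 to -3.82 in *snf1*∆ and from -1.13 to -5.32 in WT, and *SIC1* lies right of 0 in both.

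The difference between the responses of *snf1*∆ and WT was tested as a contrast of the same model, which called 54.9% of genes, 29.3% higher and 25.6% lower. With library totals alone there were 2532 genes higher and 1129 lower, against 1937 and 1695 with TMM. It called 5 of the 9. The response of *CLB1* was less negative in *snf1*∆, with a difference in log2 fold change of 2.24 (SE 0.42, adjusted p = 0.000141), as was that of *CLB2*, at 1.50 (SE 0.57, adjusted p = 0.0307). That of *CLN1* was less negative as well, at 0.70 (SE 0.28, adjusted p = 0.0403). The response of *SIC1* was lower in *snf1*∆, at -0.98 (SE 0.19, adjusted p = 0.000225), and so was that of *WHI5*, at -1.07 (SE 0.33, adjusted p = 0.00989). In *snf1*∆, then, these 3 cyclins fell less and *SIC1* rose less than in WT. The call for *CLB2* was lost without *snf1*∆ replicate 3 at 24 hr (adjusted p = 0.194), without WT replicates 2 or 3 at 24 hr (0.0828 and 0.0806), and without replicate 1 at log of *snf1*∆ (0.0514) or WT (0.0546). That for *CLN1* was lost with DESeq2 (adjusted p = 0.0727) and without any of 9 of the 12 libraries compared, at adjusted p of up to 0.128. The difference was not called for *CLN2*, with an interval of -0.54 to 0.51, for *CLB5* (-0.15 to 0.68), for *CLB6* (-0.17 to 1.64) or for *CLN3* (-1.45 to 0.46).

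JS1416 has 1 library at log, so its change carries no test. From mean log2 CPM, the difference of 24 hr over log was -2.80 for *CLN1*, against -2.50 in *snf1*∆ and -3.18 in WT. It was -3.13 for *CLN2*, against -2.27 and -2.26, and -1.55 for *CLN3*, against -0.73 and -0.25. The S phase cyclins had -2.09 for *CLB5*, against -0.86 in *snf1*∆ and -1.11 in WT, and -3.30 for *CLB6*, against -1.02 and -1.65. These values rest on a log phase library in which *CLN1*, *CLN2*, *CLB5*, *CLB6* and *WHI5* stood above every log phase library of the other strains. The mitotic cyclins had -3.41 for *CLB1*, against -2.71 and -4.87, and -4.51 for *CLB2*, against -3.91 and -5.15. *SIC1* had 0.83, against 0.80 in *snf1*∆ and 1.78 in WT, and *WHI5* had -1.11, against -0.16 and 0.88.

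Other genes of the same circuit, 62 in 7 lists, showed which neighbours moved with the 9. Of 11 SBF and MBF targets, 2 rose and 9 fell at 24 hr in *snf1*∆, with a median log2 fold change of -2.54, and 0 rose and 10 fell in WT, with a median of -3.67. *POL30*, the sliding clamp of DNA replication, had 5.20 ± 1.05 CPM at 24 hr in *snf1*∆ and 92.3 ± 12.6 CPM at log, and 3.01 ± 0.458 CPM at 24 hr in WT and 122 ± 23.6 CPM at log (SD, n = 3 each). *PCL2*, a cyclin of the kinase Pho85, was the target that rose most in *snf1*∆, at 1.85 (SE 0.19, adjusted p = 4.56e-08). Of 10 G1/S transcription factors, 6 fell in *snf1*∆ and 7 in WT, where 1, *MSA1*, rose. *SWI4*, the DNA-binding subunit of SBF, had a log2 fold change of -1.83 (SE 0.27, adjusted p = 6.55e-06) in *snf1*∆ and -3.28 (SE 0.33, adjusted p = 1.14e-08) in WT. Of 13 G2/M regulators and *CLB2*-cluster genes, 2 rose and 9 fell in *snf1*∆, and 1 rose and 10 fell in WT, with medians of -1.33 and -2.21. *SWI5*, which activates *SIC1*, was the gene of this list that fell most in both, at -3.09 (SE 0.21, adjusted p = 2.05e-10) in *snf1*∆ and -5.78 (SE 0.28, adjusted p = 1.49e-13) in WT.

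Of 9 replication licensing genes, 7 fell and 1 rose in *snf1*∆, and 8 fell and 1 rose in WT. The riser was in both cases *TAH11*, the yeast Cdt1, at 0.75 (SE 0.18, adjusted p = 0.00101) in *snf1*∆ and 3.87 (SE 0.20, adjusted p = 3.13e-13) in WT. Its mean was 88.1 ± 13.2 CPM at 24 hr in *snf1*∆ and 574 ± 57.8 CPM in WT (SD, n = 3 each).

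Among 8 genes of Cdc28 and its other regulators, 1 rose and 6 fell in *snf1*∆, and 2 rose and 6 fell in WT. *CAK1*, the kinase that activates Cdc28, rose, at 2.50 (SE 0.24, adjusted p = 2.23e-08) in *snf1*∆ and 2.97 (SE 0.25, adjusted p = 6.65e-10) in WT. *FAR1*, the pheromone-induced Cdc28 inhibitor, fell by 3.54 on the log2 scale in WT (SE 0.31, adjusted p = 1.57e-09), unlike the inhibitors *SIC1* and *WHI5*. Of 7 genes for cyclin and inhibitor degradation, 4 rose and 1 fell in *snf1*∆, and 4 rose and 3 fell in WT. *CDC14*, the phosphatase of mitotic exit that stabilises Sic1, was the one of these that fell most, at -1.80 (SE 0.21, adjusted p = 3.45e-07) in *snf1*∆ and -3.45 (SE 0.24, adjusted p = 5.15e-11) in WT. Of 4 quiescence entry regulators, 3 rose and 1 fell in *snf1*∆, and 3 rose and 0 fell in WT. The 1 that fell was *RIM15*, a protein kinase of entry into stationary phase, at -0.50 (SE 0.19, adjusted p = 0.0276). *XBP1* encodes the repressor whose core letters occur in 4 of the 9 promoters and in 45.2% of all promoters. It had 58.2 ± 17.3 CPM at 24 hr in *snf1*∆ and 23.7 ± 2.99 CPM at log. In WT it had 290.2 ± 49.8 CPM at 24 hr and 23.4 ± 0.717 CPM at log (SD, n = 3 each).

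**Figure D3:**
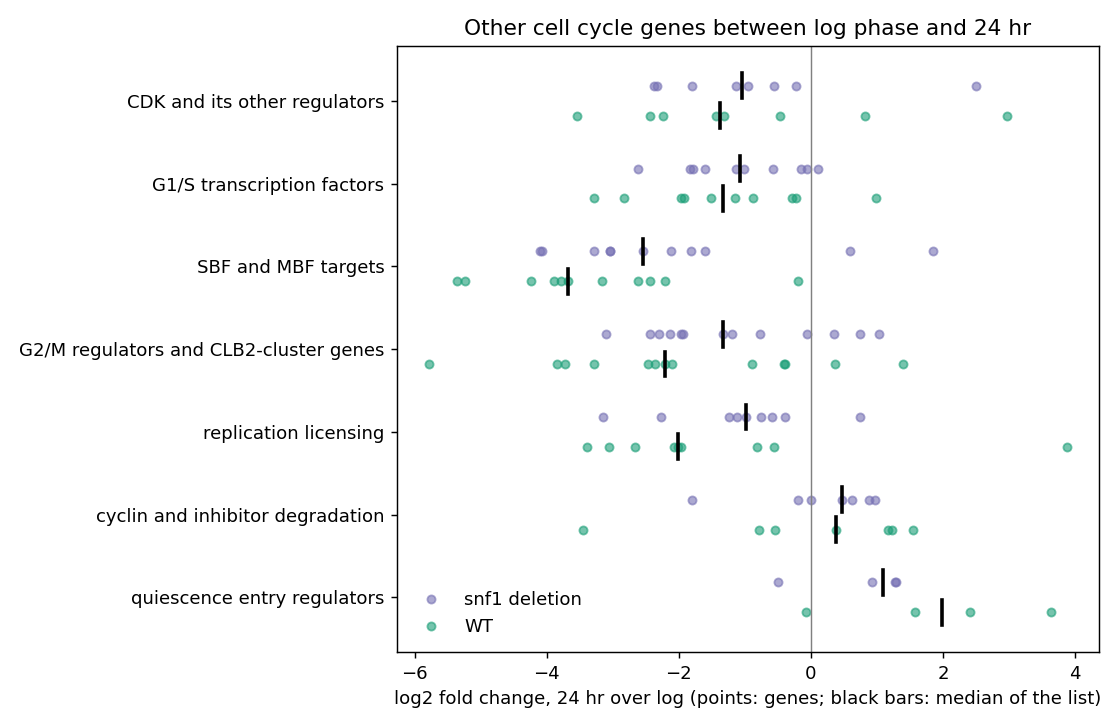
Log2 fold change at 24 hr over log for each gene of the 7 other cell cycle lists, with *snf1*∆ above WT in each row; points are genes and black bars are list medians. The SBF and MBF targets have medians of -2.54 in *snf1*∆ and -3.67 in WT, and the quiescence entry regulators 1.10 and 1.99.

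At 24 hr the strains can be compared directly, in libraries that are also part of the responses above. Between *snf1*∆ and WT, 5 of the 9 passed the test, 3 higher and 2 lower in *snf1*∆, where 64.0% of genes were called, 33.7% higher and 30.3% lower, with a median of -0.09 beside 0.10 over all genes. Scaled by library totals alone the median over all genes was 0.51, with 3243 genes called higher and 1258 lower, against 2229 and 2005 with TMM. *CLB1* was 3.18-fold higher, at 1.67 (SE 0.34, adjusted p = 0.000229), and *CLN1* 1.77-fold higher, at 0.82 (SE 0.23, adjusted p = 0.00391). *CLB2* was 2.33-fold higher, at 1.22 (SE 0.50, adjusted p = 0.0382). *SIC1* was 1.97-fold lower, at -0.97 (SE 0.14, adjusted p = 3.02e-06), and *WHI5* 1.97-fold lower, at -0.98 (SE 0.25, adjusted p = 0.00163). The library values given above did not overlap between the strains for any of the 5, nor for *CLB6*, which was not called. The share of all genes without overlap was not counted, so the number of genes without overlap is not read as a result about the 9. For *CLB2*, however, the call was lost without *snf1*∆ replicate 3 (adjusted p = 0.283), WT replicate 2 (0.114) or WT replicate 3 (0.112). *CLN2*, *CLN3*, *CLB5* and *CLB6* were not called, with intervals of -0.51 to 0.29, -1.11 to 0.25, -0.41 to 0.23 and -0.21 to 1.33. Without both doubted 48 hr libraries, which enter only through the shared spread, *CLN3* was called lower in *snf1*∆, at -0.43 (SE 0.18, adjusted p = 0.0372).

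JS1416 was next compared with its *snf1*∆ parent, which asks what *cyc8-G337S* adds. At 24 hr 3 of the 9 passed, all lower in JS1416, where 47.5% of genes were called, 20.1% higher and 27.4% lower, with a median of -0.56 beside -0.16 over all genes. *CLB5* had 4.85 and 6.05 CPM in JS1416, against 9.62, 8.86 and 10.5 CPM in *snf1*∆, at -0.86 (SE 0.19, adjusted p = 0.000891). *CLB6* had 1.44 and 0.756 CPM in JS1416, against 1.92, 2.31 and 2.91 CPM in *snf1*∆, at -1.07 (SE 0.43, adjusted p = 0.0444). *CLB1* had 8.25 and 5.86 CPM in JS1416, against 8.66, 9.82 and 18.7 CPM in *snf1*∆, at -0.85 (SE 0.33, adjusted p = 0.0422). Of these, only *CLB5* kept its call in each fit without 1 library. The call for *CLB6* was lost in 18 of 32 alternatives. DESeq2 gave adjusted p of 0.0941 for *CLB6* and 0.0766 for *CLB1*, and without *snf1*∆ replicate 3 they were 0.198 and 0.408 with edgeR. *CLB6* rests on 14 and 4 counts in JS1416.

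*SIC1* did not separate JS1416 from *snf1*∆. It had 97.7 and 84.5 CPM in JS1416, against 95.96, 86.1 and 93.8 CPM in *snf1*∆, with a log2 fold change of -0.01 (SE 0.15, adjusted p = 0.959) and an interval of -0.31 to 0.28. *CLN1* had 10.3 and 8.88 CPM in JS1416, against 8.42, 7.89 and 8.89 CPM in *snf1*∆, and *CLB2* 4.54 and 2.08 CPM, against 2.65, 3.08 and 5.30 CPM. The libraries of all 3 genes overlapped. *WHI5* had 6.09 and 5.48 CPM in JS1416, against 10.8, 9.24 and 6.50 CPM in *snf1*∆, at -0.56 (SE 0.29, adjusted p = 0.123). *CLN3* had 37.97 and 39.7 CPM in JS1416, against 79.8, 64.3 and 54.95 CPM in *snf1*∆, at -0.77 (SE 0.40, adjusted p = 0.119). Neither of these passed, though the 2 libraries of JS1416 lay below all 3 of *snf1*∆ for both. *CLN3* was called lower without both doubted 48 hr libraries, at -0.76 (SE 0.21, adjusted p = 0.00315).

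The scale matters for this comparison. With library totals alone the median over all genes was -0.98, with 500 genes called higher and 4388 lower, against 1332 and 1812 with TMM, and 7 of the 9 were called, all lower in JS1416. *SIC1* was then at -0.83 (SE 0.17, adjusted p = 0.000244), close to that median.

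Against WT at 24 hr, JS1416 had 5 of the 9 called, 1 higher and 4 lower, where 43.0% of genes were called, 20.2% higher and 22.7% lower, with a median of -0.51 beside -0.06 over all genes. Without TMM factors there were 713 genes higher and 2628 lower, against 1339 and 1504 with TMM. *CLN1* was 2.02-fold higher in JS1416, at 1.02 (SE 0.24, adjusted p = 0.00218), a call lost with scaling by library totals (adjusted p = 0.109). *SIC1* was lower at -0.99 (SE 0.15, adjusted p = 3.62e-05) and *WHI5* at -1.54 (SE 0.29, adjusted p = 0.000215). *CLB5* was lower at -0.95 (SE 0.19, adjusted p = 0.000489), and *CLN3* at -1.20 (SE 0.40, adjusted p = 0.0214). The call for *CLN3* was lost without either JS1416 library (adjusted p = 0.121 and 0.0939) and without WT replicate 1 or 2 (0.0605 and 0.0531). Without both doubted 48 hr libraries *CLB1* and *CLB2* were called higher in JS1416, at 0.83 (SE 0.35, adjusted p = 0.0475) and 1.08 (SE 0.46, adjusted p = 0.0465). *SIC1* and *WHI5* were thus lower than WT in both mutant strains.

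**Figure D4:**
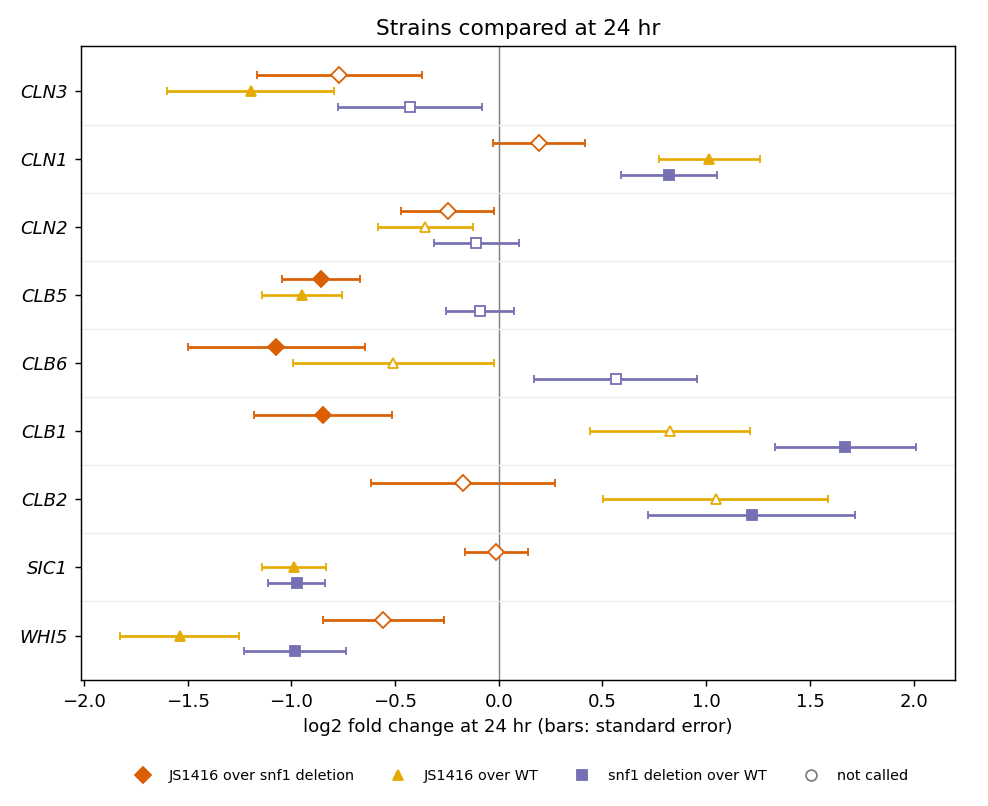
Log2 fold change of each gene at 24 hr on the x axis, for JS1416 over *snf1*∆ (diamonds), JS1416 over WT (triangles) and *snf1*∆ over WT (squares), with bars of 1 standard error and filled symbols for genes that passed edgeR's quasi-likelihood test. *SIC1* lies at -0.01 between the mutant strains and at -0.99 and -0.97 between each of them and WT.

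The other lists were also compared between *snf1*∆ and WT at 24 hr, where 33.7% of all genes were called higher and 30.3% lower. Of 11 SBF and MBF targets 6 were higher and 0 lower in *snf1*∆, with a median of 0.85 beside 0.10 over all genes. Of 9 replication licensing genes 4 were higher and 1 lower. *RAD27*, the flap endonuclease of lagging-strand synthesis, had 68.8 ± 9.0 CPM in *snf1*∆ and 9.82 ± 0.871 CPM in WT (SD, n = 3 each), 7.06-fold higher in *snf1*∆. Of 13 G2/M regulators and *CLB2*-cluster genes 7 were higher and 0 lower, and *SWI5* led them at 2.31 (SE 0.32, adjusted p = 3.42e-06). Of 10 G1/S transcription factors 2 were higher and 3 lower, with a median of 0.12. Among them *SWI4* was higher at 1.39 (SE 0.36, adjusted p = 0.0023) and *MSA1* lower at -0.97 (SE 0.19, adjusted p = 0.000197). *XBP1* was lower at -2.33 (SE 0.36, adjusted p = 9.48e-06), one of 3 of the 4 quiescence entry regulators that were lower in *snf1*∆. *TAH11* was lower at -2.71 (SE 0.19, adjusted p = 2.42e-10). Without both doubted 48 hr libraries the SBF and MBF targets had 9 higher and 0 lower, and with library totals alone 10 and 0, against 10 and 0 for the G2/M list.

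In JS1416 against the same *snf1*∆ libraries, of the SBF and MBF targets 1 was higher and 4 lower in JS1416, and *RAD27* was 6.33-fold lower, with 10.9 ± 0.0906 CPM in JS1416 (SD, n = 2). Of the G2/M list 2 were higher and 6 lower, led downward by *KIP2*, a kinesin, at -1.28 (SE 0.21, adjusted p = 3.94e-05). Of 9 replication licensing genes 1 was higher and 3 lower in JS1416, with a median of -0.54. The 1 higher was *TAH11*, at 1.96 (SE 0.20, adjusted p = 1.08e-07), and *MCM5* was lower at -1.39 (SE 0.29, adjusted p = 0.000541). *XBP1* was higher in JS1416 at 1.28 (SE 0.38, adjusted p = 0.00831). Of 8 genes of Cdc28 and its other regulators 0 were higher and 1, *CAK1*, was lower. *CAK1* had 23.9 ± 1.13 CPM in JS1416 (SD, n = 2) and 128 ± 19.5 CPM in *snf1*∆ (SD, n = 3), 5.36-fold lower. With library totals alone the SBF and MBF targets had 0 higher and 9 lower, the G2/M list 0 and 10, and the quiescence entry regulators 0 and 2, against 2 and 0 with TMM.

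Between 24 hr and 48 hr the WT pattern loosened. In WT 5 of the 9 passed, 3 higher and 2 lower at 48 hr, where 39.3% of genes were called, 19.6% higher and 19.8% lower, with a median of 0.31 beside -0.02 over all genes. Library totals alone gave 2853 genes higher and 244 lower, against 1294 and 1309 with TMM. *CLN1* had 18.6, 25.2 and 14.7 CPM at 48 hr, against 5.56, 3.82 and 5.04 CPM at 24 hr, 4.04-fold higher, at 2.02 (SE 0.22, adjusted p = 1.07e-06). *CLB1* had 10.1, 12.1 and 8.41 CPM at 48 hr, against 2.34, 5.17 and 4.34 CPM at 24 hr, at 1.32 (SE 0.35, adjusted p = 0.0052). *CLB2* had 5.36, 7.92 and 2.96 CPM at 48 hr, against 2.34, 1.35 and 1.56 CPM at 24 hr, at 1.62 (SE 0.48, adjusted p = 0.0116). The libraries of the 2 times did not overlap for these genes, and all 3 remained below the log phase level. The call for *CLB2* was lost without WT replicate 2 at 24 hr (adjusted p = 0.0508) or at 48 hr (0.0666).

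The inhibitors fell back in WT over the same interval. *SIC1* had 105, 90.1 and 140.4 CPM at 48 hr, against 178, 182 and 182 CPM at 24 hr, at -0.69 (SE 0.13, adjusted p = 0.000501). *WHI5* had 7.75, 7.04 and 11.02 CPM at 48 hr, against 15.2, 15.3 and 19.98 CPM at 24 hr, at -0.96 (SE 0.24, adjusted p = 0.00388). Scaled by library totals alone the median over all genes was 0.46 here, and neither decline was called, at -0.22 (SE 0.15, adjusted p = 0.233) for *SIC1* and -0.50 (SE 0.22, adjusted p = 0.0704) for *WHI5*. *CLN2* and *CLN3* were not called, at 0.30 (SE 0.20, adjusted p = 0.247) and 0.31 (SE 0.34, adjusted p = 0.493). Nor were *CLB5* and *CLB6*, at 0.31 (SE 0.16, adjusted p = 0.12) and 0.60 (SE 0.39, adjusted p = 0.235). Of the 11 listed SBF and MBF targets 10 were higher, like *CLN1*, and 0 lower at 48 hr in WT. Their median was 1.77, where 19.6% of all genes were called higher.

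In *snf1*∆ 2 of the 9 passed between 24 hr and 48 hr, both lower, where 41.3% of genes were called, 19.8% higher and 21.5% lower. With library totals alone there were 624 genes higher and 2675 lower, against 1313 and 1422 with TMM, and 6 of the 9 called. *SIC1* had 55.4, 56.04 and 56.2 CPM at 48 hr, against 95.96, 86.1 and 93.8 CPM at 24 hr, at -0.72 (SE 0.14, adjusted p = 0.00051). The 3 libraries agreed within 1 CPM, the doubted replicate 3 among them, and the value without both doubted libraries was -0.72 (SE 0.16, adjusted p = 0.000645). *CLB2* had 0, 0 and 5 counts in the 3 libraries at 48 hr, where 3 counts would be 1.75 and 2.00 CPM in those at 0, against 2.65, 3.08 and 5.30 CPM at 24 hr. Its log2 fold change was -2.01 (SE 0.76, adjusted p = 0.0409), and the call was lost without *snf1*∆ replicate 3 at 24 hr (adjusted p = 0.164), without replicate 1 or 2 at 48 hr (0.175 and 0.15) and without JS1416 replicate 3 at 48 hr (0.0504). All 5 counts came from the doubted library. Without both doubted libraries 4 of the 9 passed, all lower, beside 3566 of 6615 genes called, with *CLN3* at -1.58 and *CLB1* at -1.19 added. These values are a description, since the libraries were left out for their likeness to the other strain.

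In JS1416 2 of the 9 passed, where 18.7% of genes were called, 9.98% higher and 8.72% lower. Without TMM factors there were 2918 genes higher and 114 lower, against 660 and 577 with TMM, and 4 of the 9 called. *CLB5* had 6.94, 8.91 and 13.1 CPM at 48 hr, against 4.85 and 6.05 CPM at 24 hr, at 0.67 (SE 0.19, adjusted p = 0.0207). *SIC1* had 51.8, 57.9 and 53.8 CPM at 48 hr, against 97.7 and 84.5 CPM at 24 hr, at -0.74 (SE 0.15, adjusted p = 0.00259). Both calls were lost without JS1416 replicate 1 at 24 hr (adjusted p = 0.274 for *CLB5* and 0.0625 for *SIC1*), that for *CLB5* also without replicate 2 at 48 hr (0.106), and that for *SIC1* with library totals (0.256). Without both doubted libraries, where 2325 of 6615 genes were called, *CLB5* was at 0.81 (SE 0.20, adjusted p = 0.00348), *SIC1* at -0.69 (SE 0.16, adjusted p = 0.00239), and *CLN3* was also called, at 0.73 (SE 0.24, adjusted p = 0.0193).

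With TMM the log2 fold change of *SIC1* between 24 hr and 48 hr was -0.74 in JS1416, -0.72 in *snf1*∆ and -0.69 in WT, and the difference between *snf1*∆ and WT was -0.03 (SE 0.20, adjusted p = 0.929) with an interval of -0.41 to 0.36. This likeness depends on the scaling. When only library totals were used the values were -0.24 in JS1416, -1.16 in *snf1*∆ and -0.22 in WT, and the difference between *snf1*∆ and WT was called, at -0.94 (SE 0.22, adjusted p = 0.000962). For 4 cyclins the difference between *snf1*∆ and WT was called, in a contrast that called 42.1% of genes, 20.1% higher and 22.0% lower. Library totals alone gave 383 genes higher and 3626 lower, against 1329 and 1454 with TMM, and 7 of the 9 called. It was -1.75 (SE 0.32, adjusted p = 0.000214) for *CLN1*, -2.17 (SE 0.51, adjusted p = 0.00188) for *CLB1*, -3.63 (SE 0.88, adjusted p = 0.00257) for *CLB2* and -0.86 (SE 0.26, adjusted p = 0.0118) for *CLB5*, all lower in *snf1*∆. Without both doubted libraries, where 3766 of 6615 genes were called, the values were -1.87 for *CLN1*, -2.49 for *CLB1* and -0.83 for *CLB5*. *CLN3* also passed in that fit, at -1.89, as a description and no test. *CLB2* was called in that fit too, but both *snf1*∆ libraries left are at 0 counts and its fitted value is no measure of size.

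**Figure D5:**
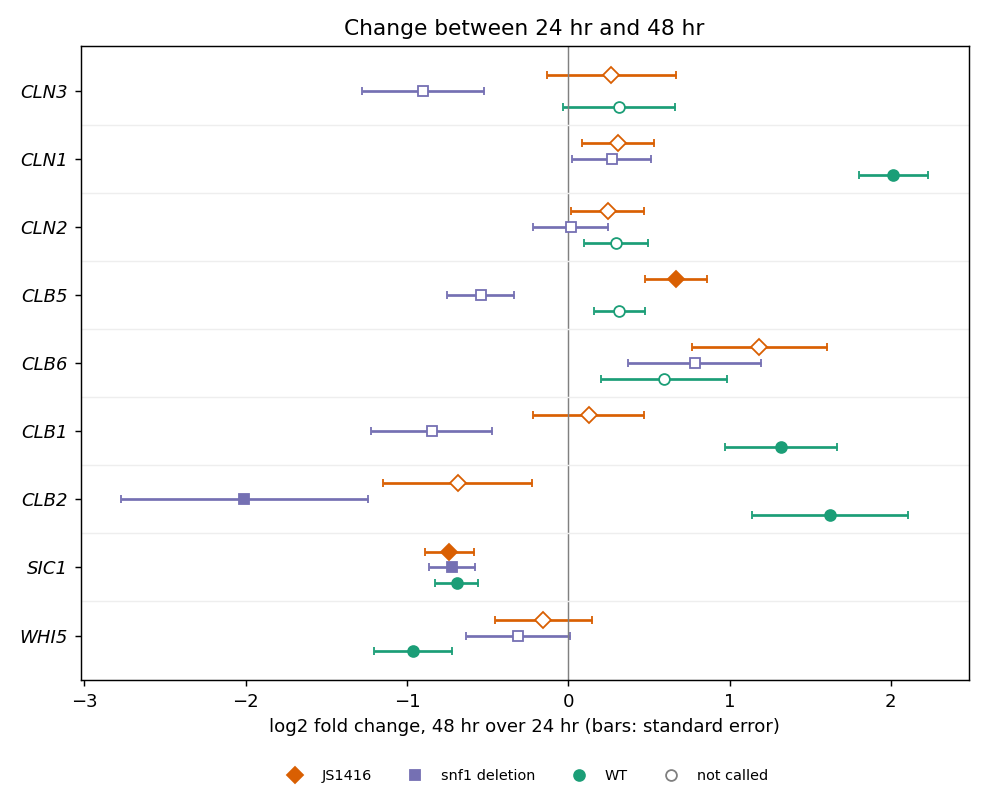
Log2 fold change of each gene at 48 hr over 24 hr on the x axis, for JS1416 (diamonds), *snf1*∆ (squares) and WT (circles), with bars of 1 standard error and filled symbols for genes that passed edgeR's quasi-likelihood test, all libraries included. With this TMM scaling *SIC1* lies between -0.74 and -0.69 in the 3 strains, against -0.24 in JS1416, -1.16 in *snf1*∆ and -0.22 in WT with library totals alone, while *CLN1* lies at 0.31 in JS1416, 0.27 in *snf1*∆ and 2.02 in WT.

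At 48 hr no member separated JS1416 from *snf1*∆, and no gene at all was called, with 275 genes and 0 of the 9 at an unadjusted p under 0.05 by edgeR and 0 of the 9 by DESeq2. This comparison rests on both doubted libraries. *CLN3* shows it best, with 21.8, 71.8 and 44.6 CPM in JS1416 replicates 1, 2 and 3, against 24.5, 19.3 and 60.98 CPM in *snf1*∆. JS1416 replicate 1 had the level of *snf1*∆ replicates 1 and 2, and *snf1*∆ replicate 3 that of the remaining JS1416 libraries. Without both libraries 3 of the 9 were called, beside 3027 of 6615 genes. Since the libraries were left out for their likeness to the other strain, this fit is no test of the difference between the strains, and its values are a description. *CLN3* was at 1.54 and *CLB6* at -1.31 in JS1416 over *snf1*∆, and *CLB2* had 75 and 1 counts in the JS1416 libraries left and 0 in both of *snf1*∆. *SIC1* was at 0.03 in that fit, with 51.8, 57.9 and 53.8 CPM in all JS1416 libraries, against 55.4, 56.04 and 56.2 CPM in those of *snf1*∆.

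Against WT at 48 hr every called member was lower in both mutant strains, in the model of all libraries. Fits of the groups compared alone, with or without a replicate block, called fewer of the 9 for each mutant strain, as given in the closing section. In *snf1*∆ 5 of the 9 passed, all lower, where 35.8% of genes were called, 18.1% higher and 17.7% lower, with a median of -0.93 beside -0.02 over all genes. With library totals alone there were 491 genes higher and 2928 lower, against 1195 and 1174 with TMM. *CLN3* had 24.5, 19.3 and 60.98 CPM in *snf1*∆, against 116, 137 and 79.8 CPM in WT, at -1.64 (SE 0.38, adjusted p = 0.00209). *SIC1* had 55.4, 56.04 and 56.2 CPM in *snf1*∆, against 105, 90.1 and 140.4 CPM in WT, at -1.0 (SE 0.14, adjusted p = 2.33e-05). The groups did not overlap for either gene. *CLN1* was lower at -0.93 (SE 0.23, adjusted p = 0.00351), *CLB5* at -0.95 (SE 0.20, adjusted p = 0.00107) and *CLB2* at -2.41 (SE 0.73, adjusted p = 0.0147). The call for *CLB2* was lost without *snf1*∆ replicate 1 or 2 (adjusted p = 0.0834 and 0.0712). Without both doubted libraries the same 5 genes passed, beside 3402 of 6615 genes called, with *CLN3* at -2.32 and *SIC1* at -1.01.

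In JS1416 6 of the 9 passed against WT at 48 hr, all lower, where 31.0% of genes were called, 15.8% higher and 15.2% lower, with a median of -0.69 beside 0.01 over all genes. Without TMM factors there were 447 genes higher and 2391 lower, against 1047 and 1005 with TMM. *SIC1* was lower at -1.03 (SE 0.14, adjusted p = 1.62e-05), *CLN3* at -1.24 (SE 0.36, adjusted p = 0.0121), *CLB5* at -0.60 (SE 0.16, adjusted p = 0.00777) and *CLN1* at -0.69 (SE 0.19, adjusted p = 0.0101). *CLB2* was lower at -1.26 (SE 0.41, adjusted p = 0.0229) and *WHI5* at -0.73 (SE 0.26, adjusted p = 0.0386). *WHI5* had 5.71, 5.42 and 1.31 CPM in JS1416, against 7.75, 7.04 and 11.02 CPM in WT, and its call was lost without JS1416 replicate 2 or 3 (adjusted p = 0.085 and 0.054) or WT replicate 3 (0.223). Those for *CLN1* and *CLB2* were lost without WT replicate 2 (0.0691 and 0.124), that for *CLB2* without WT replicate 1 (0.0539), and those for *CLN1*, *CLN3* and *CLB2* without JS1416 replicate 1 alone (0.0506, 0.0501 and 0.0729). Without both doubted libraries all 6 passed, beside 2799 of 6615 genes called, and *CLN2* was added at -0.61. With library totals alone *SIC1* was at -1.38 in JS1416 and -0.55 in *snf1*∆ over WT at 24 hr, and at -1.40 and -1.49 at 48 hr, called lower than WT in each case.

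The balance of inhibitor and cyclin mRNA can be read within each library, where a scale factor cancels. Per kilobase, *SIC1* stood 3.77 ± 0.16 log2 units above *CLN2* at 24 hr in JS1416 (SD, n = 2), 3.54 ± 0.15 in *snf1*∆ and 4.41 ± 0.19 in WT (SD, n = 3 each). At log it stood 0.47 ± 0.07 above in *snf1*∆ and 0.37 ± 0.22 in WT, and 0.19 below *CLN2* in the JS1416 library. *SIC1* stood 5.57 ± 0.60 above *CLB2* at 24 hr in JS1416, 5.41 ± 0.50 in *snf1*∆ and 7.35 ± 0.39 in WT, against 0.70 ± 0.15 in *snf1*∆ and 0.42 ± 0.23 in WT at log, and 0.23 in the JS1416 library. In every strain the difference of *SIC1* over each of the 2 cyclins was thus larger at 24 hr than at log. For JS1416 this rests on 1 library at log.

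Over the 9 group means of log2 CPM, among 5743 genes, the profile most like that of *CLB1* was *SWI5*, with r of 0.997, and that most like *CLB2* was *BUD8*, a bud site selection gene, with r of 0.998. *CLN1* was most like *MNN1*, a mannosyltransferase gene, at 0.992, and *CLN2* like *RPL41A*, a ribosomal protein gene, at 0.990. *SIC1* was most like *MDL2*, a mitochondrial transporter gene, at 0.985. *CLB6* was most like *DUS1* at 0.984 and *CTF4*, a replisome gene, at 0.974. These correlations are descriptions over 9 points that share the change from log to 24 hr.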

How the data were processed

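Poly(A) RNA was sequenced in 24 libraries by the authors as 75-base single-end reads from a strand-marking kit, mapped with Bowtie2 to sacCer3 and counted over ORFs with bedtools. The study's methods describe triplicate cultures. Whether counting used strand, and the tool versions, are not given in the sources used here. The deposited values are raw counts for 6692 ORFs, of which 6008 matched the R64 annotation (684 did not). The labels and the methods differ on the medium and on the hour of the log phase samples, and the label's 5 hr is printed.

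Counts were normalised by TMM and fitted with edgeR 4.0.16 (R 4.3.3) as 1 quasi-likelihood model of 9 groups, after its default filter, which left 6616 genes (common dispersion 0.0378). P-values were adjusted by Benjamini-Hochberg over all genes tested and called under 0.05, for 14 comparisons. Fits were tested on simulated data. CPM carry TMM factors, log2 CPM a prior count of 2, and intervals are 1.96 SE to each side. The SE was derived from the statistic of edgeR's quasi-likelihood test, so that intervals rest on the shared spread and not on the compared libraries alone. They can be narrower than the test. For *CLB5* in WT at 48 hr over 24 hr the interval was 0.0048 to 0.63, at an unadjusted p of 0.0604 by that test. Depth limits *CLB2* and *CLB6*, which had under 20 counts in some libraries.

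Members, the 7 other lists and the tests were chosen with earlier results of these data known. All 9 members are named, with *SNF1* as a label check. Named list genes were, for each list and direction, the called gene with the largest change whose libraries did not overlap between the groups, at a mean log2 CPM of at least 3, for the comparisons with log and between strains at 24 hr. Genes with the most similar profile were ranked by Pearson's r. Same-numbered *snf1*∆ and WT libraries at log deviated together, with correlations of 0.33, 0.51 and 0.13 over genes, although no label says what the numbers share. Alternatives were DESeq2 1.42.0, RLE, upper-quartile or no scaling factors, other filters, fits of the groups compared alone, a replicate block, leaving out each library, and leaving out both doubted 48 hr libraries. Promoters and coordinates came from R64. A further gene list and its motif are not reported here.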

Additional observations from a re-analysis of the deposited data

Results flagged for a closer look

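For 5 of the 9 genes the change from log to 24 hr differed between *snf1*∆ and WT by a test of the difference itself in edgeR's quasi-likelihood model. That contrast called 54.9% of all genes, so the share among the 9 is near that of all genes. The difference of the log2 fold changes, *snf1*∆ minus WT, was 0.70 (SE 0.28, adjusted p = 0.0403) for *CLN1*, 2.24 (SE 0.42, adjusted p = 0.000141) for *CLB1*, 1.50 (SE 0.57, adjusted p = 0.0307) for *CLB2*, -0.98 (SE 0.19, adjusted p = 0.000225) for *SIC1* and -1.07 (SE 0.33, adjusted p = 0.00989) for *WHI5*. The call was lost in 12 of 33 alternatives for *CLN1* and in 5 of 32 for *CLB2*. For 4 of the 9 genes the change from 24 hr to 48 hr differed in the same way, where 42.1% of all genes were called, again a similar share. The difference was -1.75 (SE 0.32, adjusted p = 0.000214) for *CLN1*, -2.17 (SE 0.51, adjusted p = 0.00188) for *CLB1*, -3.63 (SE 0.88, adjusted p = 0.00257) for *CLB2* and -0.86 (SE 0.26, adjusted p = 0.0118) for *CLB5*. The value for *CLB2* rests on *snf1*∆ libraries at 48 hr that hold 0 to 5 counts each. Both contrasts use the same 24 hr libraries, so that for *CLN1*, *CLB1* and *CLB2* they are not independent of each other. No group had more than 3 libraries, so no single library was tested against its group.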

How the results depend on the processing

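No called member changed sign under any alternative run, and without the filter on low counts every result kept its direction and its side of the threshold. Counts below are of the 9 genes called. A filter of at least 10 counts in every library left 4 genes and so lower counts, 3 for WT at 24 hr over log, 4 for *snf1*∆ at 24 hr over log, 3 for WT at 48 hr over 24 hr, 2 for *snf1*∆ over WT at 24 hr, 1 for JS1416 over *snf1*∆ at 24 hr and 2 for the difference of the responses to 24 hr. Library totals alone gave 6 for *snf1*∆ and 4 for JS1416 at 48 hr over 24 hr, 7 for JS1416 over *snf1*∆ at 24 hr and 7 for the difference of the responses to 48 hr. RLE factors and DESeq2 each gave 1 for JS1416 over *snf1*∆ at 24 hr. Fits of the groups compared alone gave 1 for *snf1*∆ and 0 for JS1416 at 48 hr over 24 hr, 2 for *snf1*∆ over WT at log, 3 for *snf1*∆ over WT at 48 hr and 1 for JS1416 over WT at 48 hr, with a cause that was not tested.

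A replicate block in the whole model gave 1 for *snf1*∆ at 48 hr over 24 hr. With the replicate block in the groups compared alone the counts were 0 for *snf1*∆ and 0 for JS1416 at 48 hr over 24 hr, 3 for *snf1*∆ over WT at log, 0 for *snf1*∆ over WT at 48 hr and 1 for JS1416 over WT at 48 hr. No label says what libraries of the same number share, in the log phase comparison of *snf1*∆ and WT or in any other. The deviations of same-numbered JS1416 and *snf1*∆ libraries at 48 hr had correlations of 0.61, -0.49 and 0.42. Leaving out both doubted 48 hr libraries gave 4 for *snf1*∆ at 48 hr over 24 hr and 3 for JS1416 over *snf1*∆ at 48 hr. It gave 1 for *snf1*∆ over WT at log, where *CLB1* was called, beside 603 of 6615 genes. Over the fits without 1 library the counts ran from 1 to 4 for *snf1*∆ and 0 to 3 for JS1416 at 48 hr over 24 hr, 1 to 4 for JS1416 over *snf1*∆ at 24 hr and 3 to 5 for the difference of the responses to 24 hr.

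Values that were not called and lay near 0 changed sign as follows, on the log2 scale. With library totals, at 48 hr over 24 hr, *CLN1* was -0.18 and *CLN2* -0.46 in *snf1*∆ and *WHI5* 0.30 in JS1416. At 24 hr *CLN2* was 0.31 and *CLB5* 0.33 for *snf1*∆ over WT, and *CLN1* -0.63 for JS1416 over *snf1*∆. At 48 hr *CLN2* was 0.088 and *SIC1* 0.097 for JS1416 over *snf1*∆, and *CLB6* -0.33 for JS1416 over WT. The difference of the responses was 0.34 for *CLN2* to 24 hr, and -0.76 for *CLB6* and -0.28 for *WHI5* to 48 hr. With upper-quartile factors *CLN2* was -0.0086 in *snf1*∆ at 48 hr over 24 hr and 0.095 in the difference of the responses to 24 hr, and *CLB5* 0.017 for *snf1*∆ over WT at 24 hr. With the replicate block *CLN2* was -0.0085 and 0.00046 in these and *SIC1* 0.023 for JS1416 over *snf1*∆ at 24 hr.

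For *SIC1* in JS1416 over *snf1*∆ at 24 hr the value was 0.093 with RLE factors, 0.032 with at least 10 counts, 0.095 with DESeq2, 0.12 with the groups alone and 0.14 with the groups alone and the block, where *CLB2* was 0.35. For *SIC1* in *snf1*∆ over WT at log it was -0.0069 with RLE, -0.015 with at least 10 counts and -0.0080 with DESeq2. In JS1416 over *snf1*∆ at 48 hr *SIC1* was 0.011 with at least 10 counts and 0.028 without both doubted libraries, and *CLN2* 0.00061 with DESeq2. In the difference of the responses to 48 hr *SIC1* was 0.0063 with RLE, 0.0038 with DESeq2, 0.0020 with the groups alone and 0.019 with the groups alone and the block. *CLB6* was -0.36 for JS1416 over WT at 48 hr without both doubted libraries.

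Over the fits without 1 library, *WHI5* ran from -0.33 to 0.046 in *snf1*∆ at 24 hr over log, and *CLN2* from -0.22 to 0.26 in *snf1*∆ at 48 hr over 24 hr. In JS1416 at 48 hr over 24 hr *CLB2* ran from -1.39 to 0.066, *CLB1* from -0.29 to 0.42 and *CLN3* from -0.42 to 0.68. For *snf1*∆ over WT at log *SIC1* ran from -0.055 to 0.054, *WHI5* from -0.041 to 0.23 and *CLN3* from -0.019 to 0.14. For JS1416 over *snf1*∆ *SIC1* ran from -0.12 to 0.088 and *CLB2* from -0.93 to 0.29 at 24 hr, and at 48 hr *CLN2* ran from -0.25 to 0.22, *CLB6* from -1.10 to 0.023, *CLB1* from -0.28 to 0.42, *SIC1* from -0.087 to 0.016 and *CLN3* from -0.29 to 1.09. *CLB6* ran from -0.35 to 0.58 for JS1416 over WT at 48 hr. In the differences of the responses *CLN2* ran from -0.11 to 0.058 to 24 hr, and to 48 hr *SIC1* ran from -0.16 to 0.17 and *CLB6* from -0.51 to 0.49.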
